A study of Homo sapiens with 19 samples.

Results

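The core glycolytic enzymes studied here are the products of 10 genes, GPI, PFKL, PFKP, ALDOA, ALDOC, TPI1, GAPDH, PGK1, ENO1 and ENO2. They were taken by gene symbol from a table of RNA-seq read counts that holds 23441 symbols. The rule uses their names alone, and edgeR's filter on low counts left all 10 in, among 14225 tested genes. The cells were pools of 786-O, a VHL-defective human line of clear cell renal carcinoma in which HIF-α subunits escape degradation in normal oxygen. Each pool was transduced with a lentivirus made from the same bicistronic EGFP vector, which carried no HIF-α sequence (control cells), HIF-1α cDNA (HIF-1α cells) or HIF-2α cDNA (HIF-2α cells), so every comparison is between infected pools of 1 line. RNA-seq gave 9 libraries, 3 per pool, and ChIP-seq gave 7 lists of peaks, 1 library for each antiserum and pool. The antisera were to HIF-2α and HIF-1β in all pools, and to HIF-1α in the HIF-1α cells alone.

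Glycolysis turns glucose into pyruvate in the cytosol and yields ATP without oxygen. The hypoxia inducible factors bind DNA as a dimer of an α subunit with HIF-1β at a short sequence, the core of the hypoxia response element, and glycolytic enzymes are among the best known genes with such elements. Clear cell renal carcinoma is known for active glycolysis and for loss of VHL. The comparisons ask how each enzyme differed when HIF-1α was put back into cells that make HIF-2α alone, and when HIF-2α itself was raised.

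Cores of the hypoxia response element near the start sites of 7 enzymes are shown first, because peaks described below lie near 6 of these promoters, while ALDOC had none. The core was searched as ACGTG or GCGTG on both strands, so that CACGT and CACGC are the same cores on the other strand, and the palindrome CACGTG was counted once. Each line gives GRCh37 sequence from the strand of the gene, 5′ to 3′, upstream of a start site annotated by GENCODE, with the cores in capitals.
GPI (chr19:34850325-34850384, plus strand): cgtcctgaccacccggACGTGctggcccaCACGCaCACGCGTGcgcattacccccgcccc
PFKL (chr21:45719633-45719692, plus strand): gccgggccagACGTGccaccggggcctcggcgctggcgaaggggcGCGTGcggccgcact
ALDOA (chr16:30076856-30076915, plus strand): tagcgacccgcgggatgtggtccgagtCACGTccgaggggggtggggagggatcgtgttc
ALDOC (chr17:26903989-26904048, minus strand): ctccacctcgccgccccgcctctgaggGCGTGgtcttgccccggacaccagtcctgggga
PGK1 (chrX:77359521-77359580, plus strand): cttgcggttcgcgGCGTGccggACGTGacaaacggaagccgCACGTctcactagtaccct
ENO1 (chr1:8939100-8939129, minus strand): agtGCGTGcgggactcggagtACGTGacgg
ENO2 (chr12:7023265-7023324, plus strand): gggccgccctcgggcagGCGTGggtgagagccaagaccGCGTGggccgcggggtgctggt

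The PGK1 window, which lies 165 to 224 bases upstream of the start of its canonical transcript, held 3 cores. The GPI window held 4, the last pair of which overlap, and it lies just upstream of the start site nearest its peaks rather than of the canonical one. The ENO1 window was kept to 30 bases because a longer transcript of the gene has untranslated sequence there. In the 500 bases upstream of the canonical start, 8 of the 10 enzymes held at least 1 core, against 76.3% of 13201 tested protein-coding genes, so that this count was near that of other genes. At least 3 cores were found for 6 of the 10, against 25% of the same genes. ENO1 had 6, GAPDH and PGK1 had 5 each and ALDOC had 4, while PFKP and TPI1 had none. A match is a description of these letters and says nothing of binding.

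Total counts were between 27852754 and 54287621 per library, and the spread of each enzyme between libraries was above counting error. The labels do not say that the 3 libraries of a pool came from separate cultures, so a p-value measures the spread between these libraries alone. In RNA from pooled cells, fewer cells with a transcript and less of it per cell cannot be told apart. Of 8 markers of renal tubule or renal carcinoma, 7 were detected in all libraries, among them VIM at 3963 to 5671 CPM (counts scaled to the size of the library with TMM factors) and PAX8 at 175 to 364 CPM. The other, CA9, a carbonic anhydrase known as a target of HIF-1α, was at 8.46, 177 and 68.3 CPM in replicates 1, 2 and 3 of the HIF-1α cells. The control libraries held 0, 0.171 and 14.3 CPM of it and the HIF-2α libraries 0.12, 0.105 and 0.694. Of 6 markers of other cells, PTPRC and CDH5 were lowest, at 0 to 0.0853 and 0 to 0.0372 CPM, and the 6 summed to 5.86 to 20.8 CPM. EPCAM, at 3.07 to 11.6 CPM, and COL1A1, at 0.724 to 7.58 CPM, reached the highest levels of the 6. CDH16 and CDH6, markers of renal tubule, differed within pools, from 0.554 to 106 and from 14.0 to 457 CPM, and both were lowest in replicate 1 of each pool. With the replicate number as a block, CA9 was higher in HIF-1α cells than in control (log2 fold change 5.72, SE 1.36, adjusted p = 0.0427 by edgeR) and than in HIF-2α cells (8.85, SE 1.55, adjusted p = 0.0147 by edgeR). In the same fit CDH6 was higher in HIF-1α than in HIF-2α cells (2.04, SE 0.38, adjusted p = 0.0172 by edgeR) and the keratin gene KRT18 lower in HIF-1α cells than in control (−0.86, SE 0.19, adjusted p = 0.0405 by edgeR). That fit called 7.96% of all tested genes in HIF-1α cells against control and 5.93% in HIF-1α against HIF-2α cells. Without the block neither CA9 (adjusted p = 0.236 by edgeR) nor KRT18 (adjusted p = 0.196 by edgeR) passed against control. The part of these markers in the values of the enzymes was not tested. Libraries with the same replicate number deviated from their pools in the same direction, and ratios are therefore also given within each number.

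The transduced genes were measured first. HIF1A, the gene of HIF-1α, was at 171, 1682 and 473 CPM in replicates 1, 2 and 3 of the HIF-1α cells. The control libraries held 30.4, 36.7 and 152 CPM of it, and those of the HIF-2α cells 15.3, 30.4 and 17.5 CPM. All 3 HIF-1α libraries were above all others, but replicate 2 had much the highest level and control replicate 3 came close to HIF-1α replicate 1. These counts add viral cDNA to truncated transcripts of the line's own gene. The log2 fold change of HIF1A against control was 3.41 (SE 0.87, adjusted p = 0.149 by edgeR's quasi-likelihood test), and 3.12 (SE 0.71, adjusted p = 0.0418 by edgeR) with the replicate number as a block. EPAS1, the gene of HIF-2α, was at 946, 3244 and 879.8 CPM in the HIF-2α cells. Its values were 456, 224 and 162 in control and 575, 627 and 397 in the HIF-1α cells. Replicate 2 was thus also the highest of the HIF-2α libraries. In the HIF-1α cells EPAS1 was 1.26, 2.8 and 2.45 times control in numbers 1, 2 and 3. A higher value in all 3 numbers was found for 29% of all tested genes. Its log2 fold change in HIF-1α cells against control was 0.93 (SE 0.54, adjusted p = 0.365 by edgeR). EPAS1 had a log2 fold change of 2.59 in HIF-2α cells against control (SE 0.57, adjusted p = 0.490 by edgeR, and 0.00157 by DESeq2). With the replicate number as a block it was 2.48 (SE 0.46, adjusted p = 0.0690 by edgeR). ARNT, the gene of HIF-1β, was between 33.1 and 69.9 CPM over the 9 libraries.

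The 10 enzymes together took 0.877 to 1.36% of all counts in 8 libraries and 2.16% in HIF-1α replicate 2, the library with the most HIF1A. That library held the highest of the 9 values for 8 of the 10 enzymes, against 10.5% of all tested genes. The exceptions were ALDOA, which was highest in HIF-2α replicate 1 (1935 against 1933 CPM), and PFKP, which was highest in HIF-2α replicate 2. Per kilobase of exon, so that genes can be compared, GAPDH had the highest mean in the control cells (1673 ± 136 CPM per kb, SD, n = 3). ENO1 at 646 ± 126 and ALDOA at 479 ± 16.6 came next, followed by TPI1 at 365 ± 58.4. PGK1 at 134 ± 18.5 and PFKP at 104 ± 12.1 CPM per kb were lower, and GPI (29.2 ± 5.56), ENO2 (28.7 ± 8.62) and PFKL (14.5 ± 5.52) lower still. ALDOC was lowest, at 2.39 ± 0.738 CPM per kb. In this order the libraries of PGK1 and PFKP, of GPI and ENO2, and of ENO2 and PFKL overlapped, and those of the other neighbors did not. The length is that of all annotated exons of a gene, which need not all be used in these cells.

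**Figure D1:**
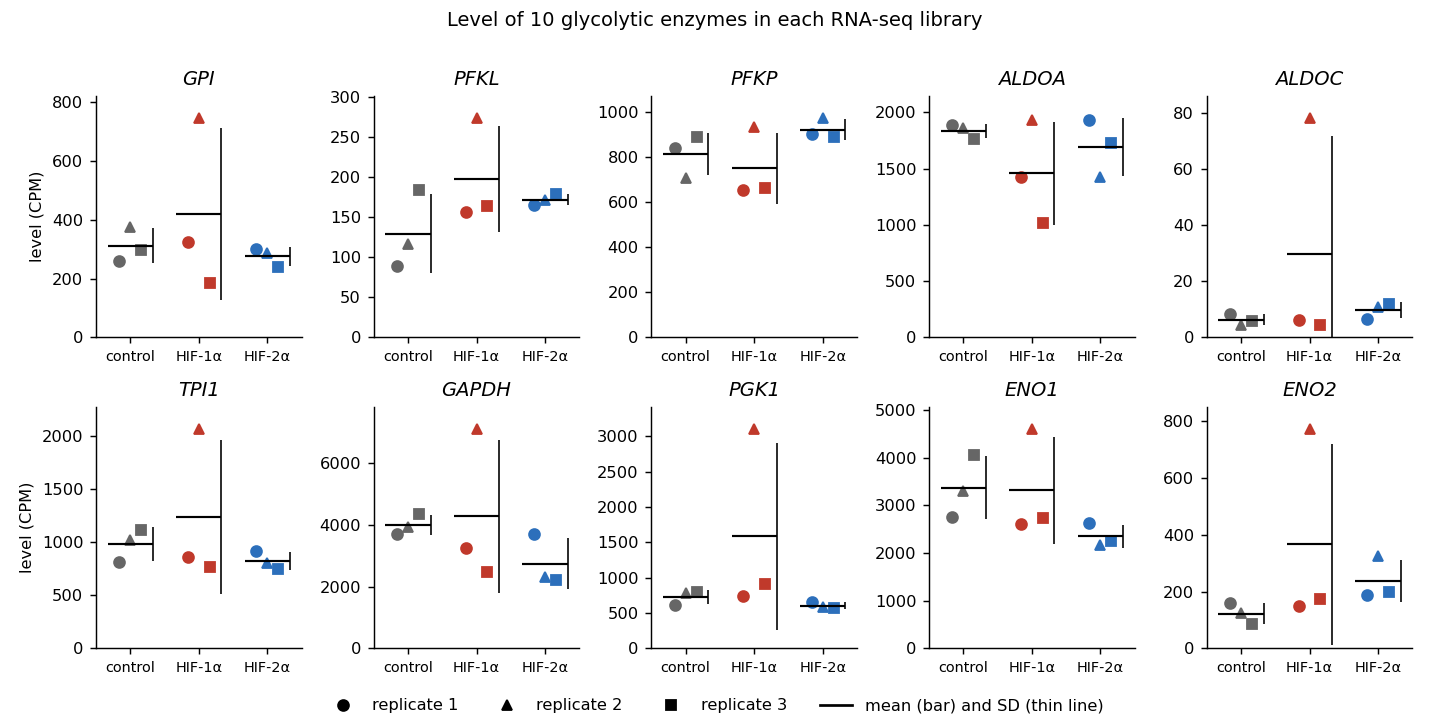
Level of each enzyme in CPM (vertical axis, from 0, with its own scale for each gene) in the 3 libraries of the control, HIF-1α and HIF-2α cells. Symbols give the replicate number, the bar the mean and the thin line the SD (n = 3, drawn down to 0 at the lowest). HIF-1α replicate 2 is the highest of the 9 libraries for 8 of the 10 genes.

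Re-expression of HIF-1α was compared with the control cells enzyme by enzyme. None of the 10 enzymes passed an adjusted p of 0.05 in edgeR's quasi-likelihood test, with or without the replicate block. The background was 0% of the 14225 tested genes without the block and 7.96% with it. By an unadjusted p under 0.05, 3 enzymes were higher without the block (ALDOC, PGK1 and ENO2), against 11.1% of all tested genes, and 2 with it (PFKL and ENO2), against 18.7%. DESeq2 without a block called none of the 9 enzymes with an adjusted p (it gave none for ALDOC), against 5.03% of its genes, and with the block it called ENO2 alone, against 11.4% of its genes called higher. The median log2 fold change of the 10 was 0.38, beside 0.04 over all tested genes. On the higher side were 7 of the 10, against 52.4% of all tested genes, and with the block 6, against 52.7%. No enzyme had all 3 HIF-1α libraries above or below all control libraries, a separation found for 12.9% of the tested genes upward and 11.2% downward.

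That median rested on 1 library. Within replicate number 2, all 10 enzymes were higher in the HIF-1α cells, with a median ratio of 2.01 and a range of 1.04 to 17.4, while 49.9% of 14054 genes above 0 in every library were higher. Of the 10, 5 were more than 2-fold higher there (PFKL, ALDOC, TPI1, PGK1 and ENO2), as were 12.4% of all genes. Within number 1, 4 of the 10 were higher (median ratio 0.948, and 52.3% of all genes), and within number 3 only 2 of the 10 (median ratio 0.70, and 53.3% of all genes). Each of the 10 had its highest of the 3 ratios in number 2, as did 25.6% of all genes. HIF1A itself was 5.64, 45.8 and 3.12 times its control in numbers 1, 2 and 3. The number with the smallest ratio of HIF1A, 3, was also the one whose control had the most HIF1A. Without HIF-1α replicate 2 the median log2 fold change of the enzymes was −0.31. The part of the HIF1A level in these ratios was not tested.

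**Figure D2:**
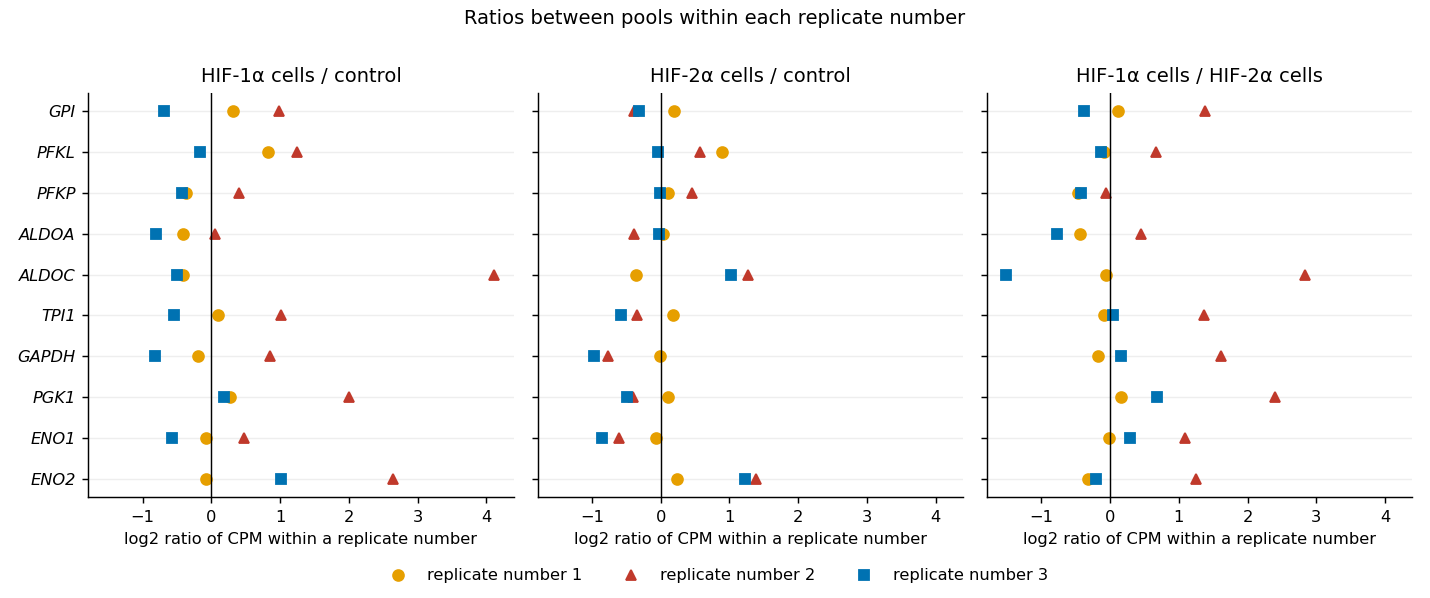
Log2 ratios of CPM (horizontal axis) between libraries with the same replicate number, for each enzyme (vertical axis), in HIF-1α cells over control, HIF-2α cells over control and HIF-1α cells over HIF-2α cells. In the left panel all 10 triangles, replicate number 2, lie right of 0 and right of the other symbols, and only PGK1 has all 3 symbols right of 0.

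GPI, which turns glucose phosphate into fructose phosphate, was at 325, 749 and 184 CPM in HIF-1α replicates 1, 2 and 3, against 261, 377 and 297 in the control cells. The HIF-1α libraries held both the highest and the lowest of these values. Its log2 fold change was 0.43 (SE 0.43, adjusted p = 0.599 by edgeR). The phosphofructokinases PFKL and PFKP carry out the committed step that makes fructose bisphosphate. PFKL was at 156, 275 and 164 CPM in HIF-1α cells and at 88.5, 116 and 184 in control cells, so that 1 control library lay above a pair of HIF-1α libraries. Its log2 fold change was 0.61 (SE 0.31, adjusted p = 0.30 by edgeR). PFKP was at 654, 931 and 663 CPM against 839, 707 and 889 in control, a log2 fold change of −0.12 (SE 0.23, adjusted p = 0.809 by edgeR), and it was the highest HIF-1α library alone that exceeded the control libraries.

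The aldolases split fructose bisphosphate into triose phosphates. ALDOA, the widely expressed form, was at 1424, 1933 and 1015 CPM in HIF-1α cells and at 1885, 1857 and 1764 in control cells. The control libraries were close together and the HIF-1α libraries lay on either side of them. Its log2 fold change of −0.33 (SE 0.28) had an adjusted p of 0.516 by edgeR. ALDOC, the form best known from brain, was at 6.27, 78.5 and 4.19 CPM in HIF-1α cells and at 8.33, 4.52 and 5.89 in control cells, from 256, 3102 and 225 counts against 322, 159 and 226. HIF-1α replicate 2 was 17.4 times its control and the other numbers were 0.753 and 0.711 times theirs. The log2 fold change of 2.25 (SE 0.93, adjusted p = 0.236 by edgeR) came to −0.28 without HIF-1α replicate 2.

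Triose phosphate isomerase, TPI1, was at 865, 2073 and 771 CPM in HIF-1α cells and at 811, 1023 and 1119 in control cells, with a log2 fold change of 0.33 (SE 0.37, adjusted p = 0.643 by edgeR). SPSB2 overlaps TPI1 on the opposite strand, and the counting is not stated to use strand. GAPDH, which oxidizes the triose phosphate, was at 3265, 7114 and 2482 CPM against 3717, 3948 and 4361 in control. In 2 of the 3 HIF-1α libraries it was below every control library, and in the other it was above all of them. Its log2 fold change was 0.10 (SE 0.40, adjusted p = 0.915 by edgeR), with a 95% interval of −0.78 to 0.98, and −0.0052 with the block. The annotation holds 65 pseudogenes of GAPDH by name, and fragments that map to more than 1 place were not counted.

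PGK1, phosphoglycerate kinase, which makes the first ATP of the pathway, was at 742, 3104 and 906 CPM in HIF-1α cells and at 612, 776 and 795 in control cells. It was the only enzyme with a higher value in all 3 numbers (1.21, 4.0 and 1.14 times control), a pattern that 29% of all tested genes had. HIF-1α replicate 1 was nevertheless below a pair of the control libraries. The log2 fold change was 1.12 (SE 0.48, adjusted p = 0.241 by edgeR), and 0.15 without HIF-1α replicate 2. PGAM4 overlaps PGK1 on the opposite strand and ATP7A overlaps its longest transcript. On the same strand, RSKR overlaps ALDOC and LRRC23 overlaps ENO2, and coding genes without a symbol overlap GPI and ALDOA. The part of these overlaps in the counts was not tested.

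The enolases make phosphoenolpyruvate. ENO1, the widely expressed form, was at 2607, 4605 and 2739 CPM in HIF-1α cells and at 2749, 3308 and 4056 in control cells, and its log2 fold change of −0.02 (SE 0.29, adjusted p = 0.973 by edgeR) had a 95% interval of −0.68 to 0.63. ENO2, the form best known from neurons, was at 151, 774 and 174 CPM in HIF-1α cells and at 159, 124 and 85.6 in control cells. HIF-1α replicates 2 and 3 were above all control libraries, and replicate 1 was just under the highest of them. The log2 fold change of ENO2 was 1.57 (SE 0.58, adjusted p = 0.205 by edgeR). With the block it was 1.22 (SE 0.44, adjusted p = 0.0966 by edgeR), and 1.19 by DESeq2 with the block, at an adjusted p of 0.0234, the only call for an enzyme in this comparison. Without HIF-1α replicate 2 it was 0.37 (adjusted p = 0.602 by edgeR).

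**Figure D3:**
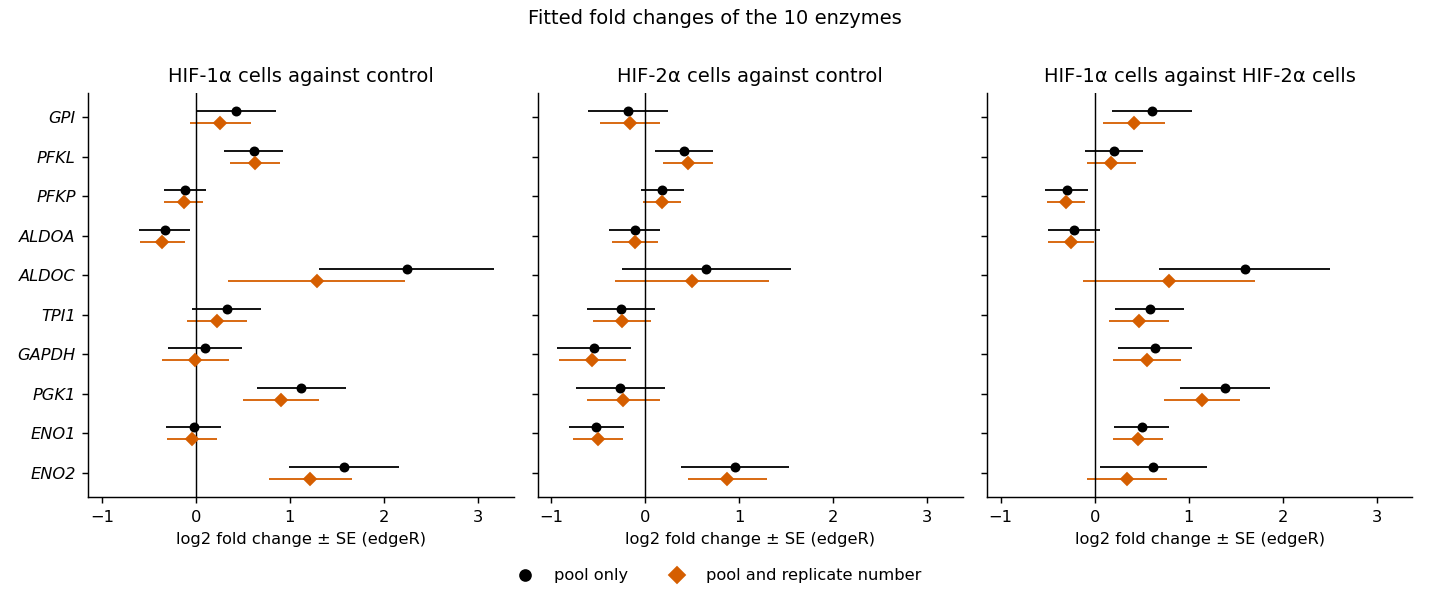
Log2 fold changes with their SE (horizontal axis) for each enzyme (vertical axis) from edgeR over all 9 libraries, in the fit on the pool alone (circles) and with the replicate number as a block (diamonds). The highest values in the left panel are those of ALDOC (2.25), ENO2 (1.57) and PGK1 (1.12), and no value in the 3 panels passed an adjusted p of 0.05.

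Overexpression of HIF-2α was compared with the same 3 control libraries. No enzyme passed an adjusted p of 0.05 in edgeR with or without the block, or in DESeq2 with or without the block, and none had an unadjusted p under 0.05 in edgeR. The shares of all genes under these rules were 0% and 0.267% for edgeR's adjusted p without and with the block, 0.456% and 3.4% for DESeq2, and 5.89% and 14.5% for edgeR's unadjusted p. The median log2 fold change was −0.15, beside −0.02 over all tested genes. Of the 10, 6 were on the lower side and 4 on the higher side, where 47.5% of all tested genes lay. Within replicate numbers 1, 2 and 3, 7, 4 and 2 of the 10 were higher than control, with median ratios of 1.08, 0.776 and 0.889, while 49.7, 47.7 and 50.8% of all genes above 0 in every library were higher.

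ENO2 was the one enzyme whose HIF-2α libraries were all above the control libraries, as was the case for 6% of the tested genes. It was at 188, 324 and 200.4 CPM in HIF-2α replicates 1, 2 and 3, and 1.18, 2.62 and 2.34 times the control of the same number. Its log2 fold change was 0.95 (SE 0.57, adjusted p = 0.842 by edgeR), and the 95% interval ran from −0.33 to 2.23. GAPDH and ENO1 were below all control libraries in the HIF-2α cells, as were 5.19% of the tested genes. GAPDH was at 3704, 2323 and 2222 CPM, and the highest of these was only just under the lowest control library (3717). Its log2 fold change was −0.54 (SE 0.40, adjusted p = 0.843 by edgeR). ENO1 was at 2624, 2172 and 2244 CPM, with a log2 fold change of −0.52 (SE 0.29, adjusted p = 0.842 by edgeR). The widely expressed enolase and the neuronal one thus stood on opposite sides of control in the HIF-2α cells, although neither passed the test.

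PGK1 was at 663, 588 and 566 CPM in the HIF-2α cells, within and below the range of the control libraries, and had a log2 fold change of −0.27 (SE 0.47, adjusted p = 0.935 by edgeR). PFKL was at 165, 172 and 179 CPM and PFKP at 901, 974 and 887, and both had 2 of 3 numbers above control. ALDOA was at 1935, 1421 and 1728 CPM and TPI1 at 915, 804 and 749, each with 1 number above control, as had GPI at 299, 287 and 239. ALDOC was at 6.52, 11 and 11.9 CPM, from 271, 314 and 464 counts, which was 0.783, 2.42 and 2.02 times its control. These 7 enzymes had log2 fold changes of −0.27 to 0.65 and overlapped the control libraries.

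HIF-1α and HIF-2α cells were compared directly as well, and this comparison shares its libraries with the other 2. No enzyme passed an adjusted p of 0.05 in edgeR, where the background was 0.0492% of the tested genes, and none with the block, where it was 5.93%. By DESeq2 with the block PGK1 was higher in HIF-1α cells (log2 fold change 1.12, adjusted p = 0.0335), against 7.95% of its genes called higher. By DESeq2 without the block none of the 9 enzymes with an adjusted p was called, against 4.26% of its genes. PGK1 was the one enzyme with an unadjusted p under 0.05 in edgeR, without the block (1.39, SE 0.48, adjusted p = 0.25) and with it, against 9.04% and 14.6% of all tested genes on the higher side. It was also the one enzyme with all 3 HIF-1α libraries above all HIF-2α libraries, as were 10.4% of the tested genes, at 1.12, 5.28 and 1.60 times the HIF-2α cells in numbers 1, 2 and 3, where 25.3% of genes were higher in all 3 numbers. Without HIF-1α replicate 2 its log2 fold change was 0.41 (adjusted p = 0.529 by edgeR). All 10 enzymes had their highest ratio of HIF-1α to HIF-2α cells in number 2, as had 32.6% of all genes. PFKP lay on the lower side in all 3 numbers, at 0.726, 0.957 and 0.747 times, a pattern of 24.1% of the tested genes, and its log2 fold change was −0.30 (SE 0.23, adjusted p = 0.599 by edgeR). The median over the enzymes was 0.60, beside 0.02 over all tested genes, and −0.14 without HIF-1α replicate 2. ENO2 had 0.62 (SE 0.57) here, and −0.58 without that library.

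The share of each isoenzyme in its family was computed per kilobase of exon and is a description. ENO2 made 6.59, 4.36 and 2.51% of the summed level of ENO1, ENO2 and ENO3 in control replicates 1, 2 and 3. It made 6.59, 17.0 and 7.16% in the HIF-1α cells and 8.03, 15.4 and 9.80% in the HIF-2α cells. The HIF-2α libraries were thus all above the control libraries. This separation follows from the levels given above, where ENO2 was above and ENO1 below all control libraries, and is no further result. HIF-1α replicate 1 was level with control replicate 1. ALDOC made 0.356 to 0.644% of the aldolases in the control cells, 0.492 to 1.12% in the HIF-2α cells, and 0.642, 5.62 and 0.601% in the HIF-1α cells. PFKL made 15.7 to 19.3% of the phosphofructokinases in the HIF-1α cells against 7.78 to 14.2% in the control cells and 12.3 to 14.0% in the HIF-2α cells, and PFKP was the main form in every library, at 72.8 to 84.8%. ENO3 was at most 0.139% of its family.

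**Figure D4:**
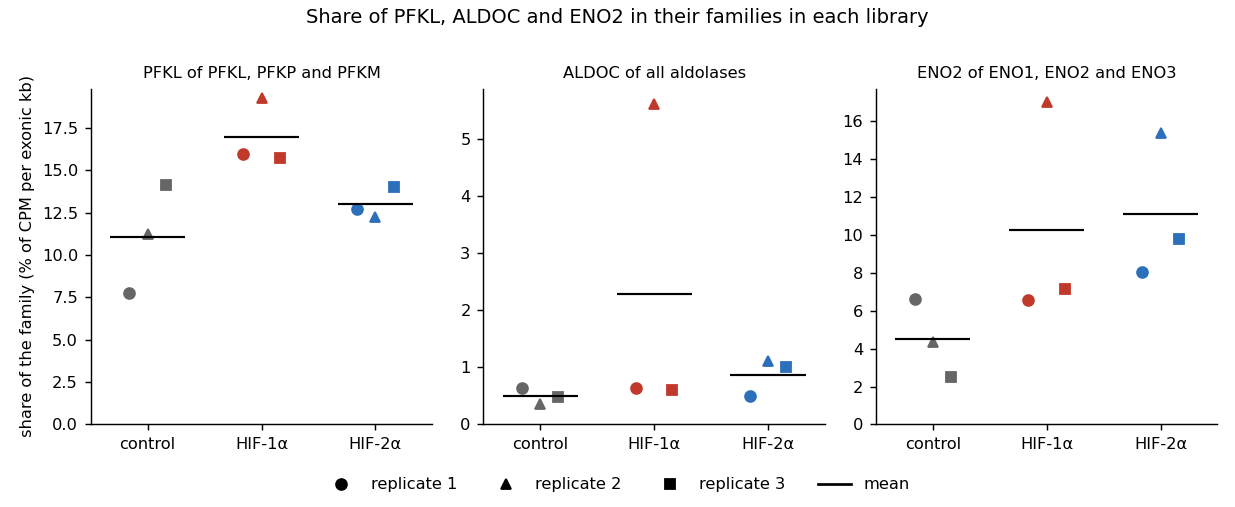
Share of PFKL, ALDOC and ENO2 in the summed level of their families (vertical axis, percent of CPM per exonic kb, from 0) in each library of the control, HIF-1α and HIF-2α cells. Symbols give the replicate number and bars the mean. ENO2 reaches 17.0% and 15.4% in replicate 2 of the HIF-1α and HIF-2α cells, and ALDOC leaves the range of the other libraries only in HIF-1α replicate 2, at 5.62%.

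Peaks were next placed at the start sites of the enzymes. Each list came from 1 library, so the counts have no replicate error, and a peak is a window of 2500 bases with no height. An enzyme was counted where the midpoint of a peak lay within 10 kb of any of its annotated start sites. The HIF-1α antiserum gave such a peak for 9 of the 10 enzymes in the HIF-1α cells, against 34.6% of the 13769 tested genes with a position. HIF-1β did so for 9 of 10 in each pool, against 25.7% of genes in the control cells, 40.8% in the HIF-1α cells and 16.2% in the HIF-2α cells. HIF-2α did so for 7 of 10 in each pool, against 5.32% of genes in the control cells, 4.21% in the HIF-1α cells and 14.5% in the HIF-2α cells. GAPDH, TPI1 and ENO2 lie within 380 kb of each other on chromosome 12, TPI1 and ENO2 only 47 kb apart, and so are not independent loci.

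The enzyme without a peak was ALDOC in every list, although it has 4 cores in its promoter and had the highest ratio in HIF-1α replicate 2. Its nearest peak was one of HIF-1β in the HIF-1α cells, 23.4 kb away. HIF-2α peaks were missing at 2 more enzymes in each pool, and these differed between pools. GPI and ENO2 lacked one in the control cells, TPI1 and ENO2 in the HIF-1α cells, and GPI and PGK1 in the HIF-2α cells. ENO2 therefore had a HIF-2α peak in the HIF-2α cells alone, 0.01 kb upstream of a start site, while its nearest one in the control cells lay 45.7 kb away. PGK1 had one in the control and HIF-1α cells, 0.155 and 0.147 kb upstream, and none within 50 kb in the HIF-2α cells. Whether a missing peak is a missing site or a site below the threshold of the list cannot be read from positions.

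The midpoints lay close to start sites. HIF-1α peaks were centred 0.196 kb upstream of the start of PGK1 (window chrX:77358300-77360799), 0.542 kb upstream of GAPDH, 0.517 kb upstream of GPI and 0.275 kb downstream of a start site of ENO2. Those of ENO1, ALDOA, TPI1 and PFKP were within 0.076 kb of a start site and that of PFKL was 0.235 kb downstream. The GPI peak stood 6.23 kb before the canonical start, near the upstream start site whose 4 cores are printed above. PFKP had 3 to 6 peaks within 50 kb in every list, more than any other enzyme in 4 of the 7 lists. Every HIF-1α window at the 9 enzymes held at least 1 core, as did 99.7% of all 5147 such windows, and 6 of 9 held one within 150 bases of the midpoint, against 65.6% of all. The windows of GPI, TPI1 and ENO2 held none that close to the midpoint. By both measures the windows of the enzymes were like the rest of the list.

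**Figure D5:**
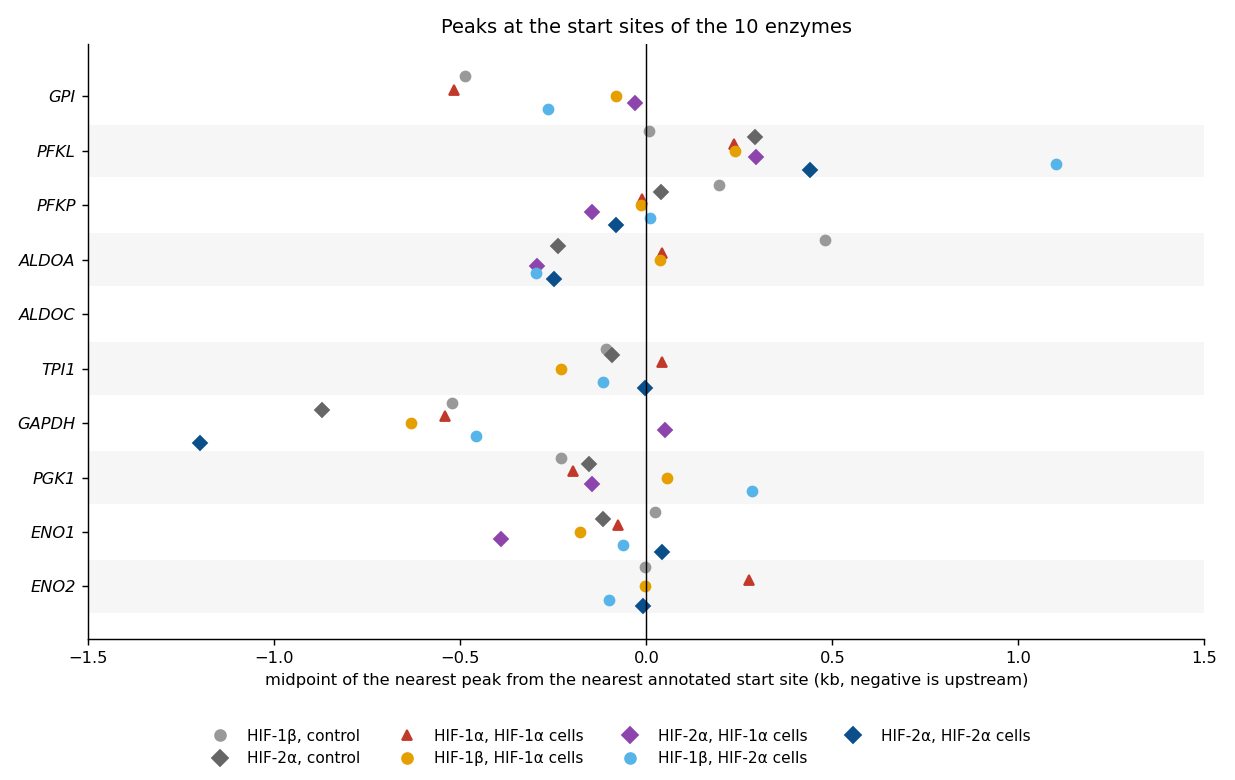
Distance in kb (horizontal axis) from the nearest annotated start site of each enzyme (vertical axis) to the midpoint of its nearest peak in the 7 lists, 1 library each. Nearest peaks within 1.5 kb are all drawn, and further peaks of the same list are not. ALDOC has none, and the ENO2 peak of HIF-2α in the control cells, at 45.7 kb, and the ALDOC peak of HIF-1β, at 23.4 kb, lie outside the axis.

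Other enzymes of the same chain and of its control by bisphosphates were read from 2 lists. Of 10 other isoenzymes and enzymes of the chain, 6 were tested and none passed an adjusted p of 0.05 in edgeR in the 3 comparisons, with or without the block. PGAM1, the mutase between PGK1 and enolase, was at 604, 1617 and 437 CPM in the HIF-1α cells and at 647, 1291 and 1118 in the control cells. PKM, pyruvate kinase, was at 2562, 3928 and 1574 CPM in the HIF-1α cells, 2785, 2488 and 2291 in the HIF-2α cells and 3453, 3944 and 3906 in the control cells. The HIF-2α libraries of PKM were all below the control libraries, as were those of 5.19% of the tested genes, with a log2 fold change of −0.58 (SE 0.32, adjusted p = 0.842 by edgeR). Both enzymes shared with the 10 the highest HIF-1α value in replicate 2. PKM was nevertheless not above control in any number, at 0.742, 0.996 and 0.403 times control in numbers 1, 2 and 3. PGAM1 was above control in number 2 alone.

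Of 8 genes that make or remove fructose and glycerate bisphosphates, 5 were tested. PFKFB4, a kinase and phosphatase that makes the bisphosphate which activates phosphofructokinase, was at 32.4, 184 and 34.9 CPM in the HIF-1α cells and at 18.1, 29.4 and 11.4 in the HIF-2α cells. Control libraries held 28.0, 37.7 and 14.6 CPM. All HIF-1α libraries were above all but one of the others, control replicate 2. It was the only gene of both lists to pass in edgeR, in HIF-1α against HIF-2α cells with the block (log2 fold change 1.78, SE 0.35, adjusted p = 0.0224 by edgeR), where 5.93% of all tested genes passed. Without the block its adjusted p was 0.227 by edgeR. Against control it had 1.65 (SE 0.67, adjusted p = 0.233 by edgeR). With the block its adjusted p against control was 0.0517 by edgeR. By DESeq2 with the block it was 0.0042, where 11.4% of its genes were called higher. PFKFB3, the inducible form, was at 132, 511 and 176 CPM in the HIF-1α cells, where the control libraries held 146, 215 and 151, and did not pass.

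The genes most like the enzymes were sought among 10638 genes with a mean of at least 5 CPM that are in none of the lists. Likeness was the root mean square difference of the 6 log2 ratios to control, 3 per transduced pool, from the medians of the 10 enzymes, so the 6 share their control libraries. WDR45B (0.12), SMAP2 (0.18), FOXD1 (0.18) and PEX3 (0.19) were among the 5 nearest. TPI1 (0.18) and GPI (0.19) were the nearest of the enzymes themselves, while ENO2 (1.30) and ALDOC (1.53) were the farthest from the shared pattern.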

How the data were processed

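The authors aligned directional polyA+ libraries to GRCh37 (TopHat with Bowtie), assigned fragments that map to 1 place to UCSC genes with HTSeq (intersection-strict) and deposited the raw counts without normalization. The 7 deposited lists hold peak positions of 2500 bases without a score, called by the authors with T-PIC and MACS on GRCh37. Input libraries were not used here. The enzymes and all lists were chosen with earlier results of these data known. Counts were fitted with edgeR 4.0.16 (R 4.3.3) over all 9 libraries, with TMM factors, edgeR's filter on low counts and the quasi-likelihood test on the pool, two-sided, with Benjamini-Hochberg adjusted p-values over 14225 genes and a threshold of 0.05. SE and 95% intervals come from the quasi-likelihood F. DESeq2 1.42.0, fits with the replicate number as a block, other scalings and fits without a library were alternatives. The numbers were checked for pairing by deviations from pool means. Over genes, 9 same-number pairs of libraries correlated at 0.348 to 0.652, and 18 pairs of unlike number at −0.478 to 0.0281, so the numbers pair the libraries. All 10 enzymes, HIF1A, EPAS1, ARNT, PGAM1, PKM, any gene of the other lists that passed and the 5 genes most like the enzymes are named by rule; PFKFB3 was added after its values were seen. A few items that these rules name are not reported here. Symbols were matched to GENCODE lifted to GRCh37 for 13769 of the tested genes, 892 of them by an older symbol. The edgeR script was tested on simulated counts.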

Additional observations from a re-analysis of the deposited data

How the results depend on the processing

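Of the values of single enzymes over the alternatives, 569 kept their direction and their side of an adjusted p of 0.05, 26 changed sign and 2 passed the threshold. The values that changed sign had not passed. GAPDH in HIF-1α cells against control was at −0.0052 on the log2 scale with the replicate block in edgeR, and at −0.034 by DESeq2 with the block. The other sign changes came from leaving out libraries. Without 1 library in turn, log2 fold changes in HIF-1α cells against control ran from −0.32 to 0.78 for GPI, −0.28 to 2.76 for ALDOC, −0.29 to 0.58 for TPI1, −0.51 to 0.37 for GAPDH and −0.36 to 0.12 for ENO1. Against HIF-2α cells they ran from −0.14 to 0.96 for GPI, −0.13 to 0.34 for PFKL, −0.94 to 2.11 for ALDOC, −0.038 to 0.84 for TPI1 and −0.58 to 0.99 for ENO2. Without replicate number 2 in every pool and with the block, the values against control were −0.20 for GPI, −0.46 for ALDOC, −0.26 for TPI1 and −0.54 for GAPDH. Against HIF-2α cells they were −0.11 for GPI, −0.11 for PFKL, −0.84 for ALDOC, −0.032 for TPI1, −0.034 for GAPDH and −0.26 for ENO2. Without number 3 PFKP was at 0.0046 and ENO1 at 0.21 against control. The median of the enzymes ran from −0.31 to 0.65 against control and from −0.14 to 0.88 against HIF-2α cells, each lowest without HIF-1α replicate 2, and no enzyme passed in any of these fits.

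DESeq2 with the replicate block called 1 enzyme in HIF-1α cells against control, ENO2, and 1 in HIF-1α against HIF-2α cells, PGK1, as well as 1 gene of bisphosphate metabolism in each, PFKFB4. For that list in HIF-1α against HIF-2α cells, edgeR with the block and DESeq2 without it also called 1 gene. Pairing by the block in edgeR changed no call of an enzyme, and the median log2 fold change in HIF-1α cells against control was then 0.24. Without correction for length, the mean share of PFKP in the HIF-2α cells was 78.6% and that of ALDOA in the control cells 99.7%. With 5 kb in place of 10 kb the same enzymes had peaks in all 7 lists. With the 5′ end of each gene alone PGK1 was lost in 6, since its longest annotated transcript starts far upstream. The lists of peaks give no depth, and 1 library each leaves their counts without replicate error.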
